A study of Mus musculus with 6 samples.

Results

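The genes described here encode 10 proteins that neutrophils carry, most of them in granules: Ngp, Camp, Ltf, Lcn2, Mmp8, Mmp9, S100a8, S100a9, Elane and Mpo. They were listed by name, and each was read from the probe sets that the platform annotation gives to that symbol alone. All 10 were found, with 1 probe set each, among 14860 genes that such probe sets name on an array of 23332 probe sets. The tissue was olfactory epithelium, the sheet at the back of the nose that holds the odorant-sensing neurons, from 3 C57Bl/6 mice taken 5 days after 1 nostril had been closed (unilateral naris occlusion). Total RNA of the closed side (occluded, n = 3 arrays) was compared with that of the open side (contralateral, n = 3 arrays). Per the labels, odour stimulation goes down on the occluded side and up on the contralateral side, so the contralateral side belonged to an operated mouse too, and no unoperated mouse was analysed here. The labels give neither age nor sex, and do not say which arrays share a mouse. The p-values below set each difference against the spread between these arrays, and 3 arrays a side limit the precision of every value. Unless stated, p-values, SEs and intervals treat the 6 arrays as independent and ignore any pairing of sides within a mouse.

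Neutrophils are short-lived white blood cells that are made in bone marrow and fill their granules in a fixed order as they mature. Azurophil granules come first, at the promyelocyte stage, and hold myeloperoxidase (Mpo), which makes hypochlorous acid, and neutrophil elastase (Elane), a serine protease. Specific granules follow and hold lactoferrin (Ltf), the iron-binding lipocalin 2 (Lcn2), the cathelicidin Camp, its relative Ngp, and the collagenase Mmp8, while gelatinase granules with the gelatinase Mmp9 come last. S100a8 and S100a9 form calprotectin, an abundant calcium- and zinc-binding protein of the cytosol. A circulating neutrophil has largely stopped transcribing the azurophil genes. Several late genes are also used elsewhere: glands and epithelia of the airway make lactoferrin and lipocalin 2, and osteoclasts, the bone-resorbing cells, make Mmp9. Here Mpo and Elane are called early and the other 8 late.

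Of the 10 genes, 5 lie in 2 groups of neighbours. Camp (chr9:109847377-109849456), Ngp (chr9:110419808-110423012) and Ltf (chr9:111019292-111042766) lie within 1195 kb of each other on mouse chromosome 9 in build GRCm38.p6, and S100a8 and S100a9 within 26.7 kb on chromosome 3. The others lie apart from these and from each other, Mmp8 on chromosome 9, Lcn2 and Mmp9 on chromosome 2, Elane on 10 and Mpo on 11. The 250 bases before the annotated start are shown for Camp, Ngp and Ltf, because Ngp and Ltf had the largest side differences of the 10 genes and Camp had none that stood out from its spread, and for the early genes Mpo and Elane as their counterpart. Sequences are from RefSeq, GRCm38.p6, written 5′ to 3′ along the gene's strand: Ngp at chr9:110419558-110419807 (+ strand), Ltf at chr9:111019042-111019291 (+ strand), Camp at chr9:109849457-109849706 (− strand), Mpo at chr11:87793534-87793783 (+ strand) and Elane at chr10:79886062-79886311 (+ strand). Capitals mark matches, on either strand, to TTGCNNAA, a form of the site of C/EBP factors, which drive granule genes, to GAGGAAG, a form of the site of the myeloid factor PU.1, or to the TATA box letters TATAAA.
Ngp: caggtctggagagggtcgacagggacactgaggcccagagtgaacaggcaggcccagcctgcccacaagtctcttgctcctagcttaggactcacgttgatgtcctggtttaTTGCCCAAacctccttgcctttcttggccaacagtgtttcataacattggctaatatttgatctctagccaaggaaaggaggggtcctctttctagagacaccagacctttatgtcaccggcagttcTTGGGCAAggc
Ltf: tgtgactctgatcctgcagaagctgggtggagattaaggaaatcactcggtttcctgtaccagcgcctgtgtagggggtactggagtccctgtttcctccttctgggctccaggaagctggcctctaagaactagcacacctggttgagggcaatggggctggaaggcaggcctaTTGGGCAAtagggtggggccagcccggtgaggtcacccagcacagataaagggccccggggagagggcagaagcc
Camp: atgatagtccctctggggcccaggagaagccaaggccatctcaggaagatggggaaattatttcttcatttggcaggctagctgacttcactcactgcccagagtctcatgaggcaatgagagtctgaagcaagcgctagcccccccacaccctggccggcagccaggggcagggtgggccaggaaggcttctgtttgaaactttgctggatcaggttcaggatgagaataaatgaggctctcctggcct
Mpo: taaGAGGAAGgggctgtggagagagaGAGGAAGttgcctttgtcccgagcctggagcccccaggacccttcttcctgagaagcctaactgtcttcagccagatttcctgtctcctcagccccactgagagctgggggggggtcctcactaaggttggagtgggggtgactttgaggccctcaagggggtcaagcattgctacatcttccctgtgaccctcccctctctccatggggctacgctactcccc
Elane: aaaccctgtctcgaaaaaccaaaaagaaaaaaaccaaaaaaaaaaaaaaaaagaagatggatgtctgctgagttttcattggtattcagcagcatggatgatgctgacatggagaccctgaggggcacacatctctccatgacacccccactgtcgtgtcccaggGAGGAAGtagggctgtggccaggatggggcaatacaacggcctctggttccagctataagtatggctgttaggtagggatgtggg
A match to TTGCNNAA was present in 5 of the 9 genes with a promoter in the table (Ngp, Ltf, Lcn2, Mmp8 and S100a9) and in 9.56% of all 32851 promoters of the same length. Ngp held it at 138 and at 11 bases before the start, and Ltf at 75. The second Ngp match and the Ltf match were the same letters, TTGGGCAA. Camp, their neighbour, held none of the 3 motifs in this window. GAGGAAG matched in 5 of 9, namely both early genes, Lcn2, Mmp8 and S100a8, against 10.6% of all promoters, and TATAAA in S100a8 only, against 12.4%. No match overlapped another. These are letter matches, and binding was not measured.

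The arrays and tissue were checked first. Omp, the marker protein of mature olfactory neurons, had log2 values from 13.51 to 13.74. Array medians lay between 7.94 and 8.12, and occluded replicate 1 stood apart, with correlations to the others of 0.977 to 0.983, where the other 5 arrays correlated with each other at 0.986 to 0.989. Values of granule genes that rest on this array are given with and without it. The probe sets of 14 genes of other organs (liver, pancreas, kidney, testis and the like, a list chosen after the data had been seen) had mean log2 values from 4.60 to 7.64 with a median of 6.05. Only Ltf, Lcn2 and Mmp9 had means above that range. The other 7 granule genes lay within it, and Mmp8 below its median, so their signal cannot be told from that of genes not expected in this tissue, and differences of such dim probe sets tend to be understated. Probe sets differ in brightness for equal RNA, so the levels of different genes are not ranked here.

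Late granule genes lay higher on the occluded side in 6 of 8 cases, with a median log2 difference of 0.31, and the 2 early genes were at 0.11 and -0.05. Without occluded replicate 1, 8 of 8 late genes lay above 0 and their median was 0.22. Camp and Lcn2, which changed sign, were then at 0.08 and 0.12. In that fit the median of all probe sets was 0.02 in place of 0.06, and their share above 0 was not counted. Not one of the 10 passed the test: limma, with p-values adjusted by Benjamini-Hochberg over all 23332 probe sets, called 0 of them, as it called 0% of all probe sets, and their adjusted p ran from 0.805 to 0.985. The unadjusted p was under 0.05 for 2 of 10, both higher on the occluded side (Ngp and S100a8), against 5.28% of all probe sets, 3.81% higher and 1.47% lower. In 3 of 10 (Ngp, S100a8 and S100a9) every occluded array lay above every contralateral one, against 7.49% of all probe sets, and in none did the sides separate the other way, against 3.24%. A difference above 0 was found in 7 of 10 granule genes and in 64.8% of all probe sets, whose median was 0.06. Across all probe sets the unadjusted calls, 890 higher and 343 lower, turned to 510 higher and 873 lower when each array was centred on its median, and the granule genes were then 7 of 10 above 0 with a median of 0.19 in place of 0.27. A change in the number of cells of a type and a change in RNA per cell cannot be told apart in tissue RNA.

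**Figure D1:**
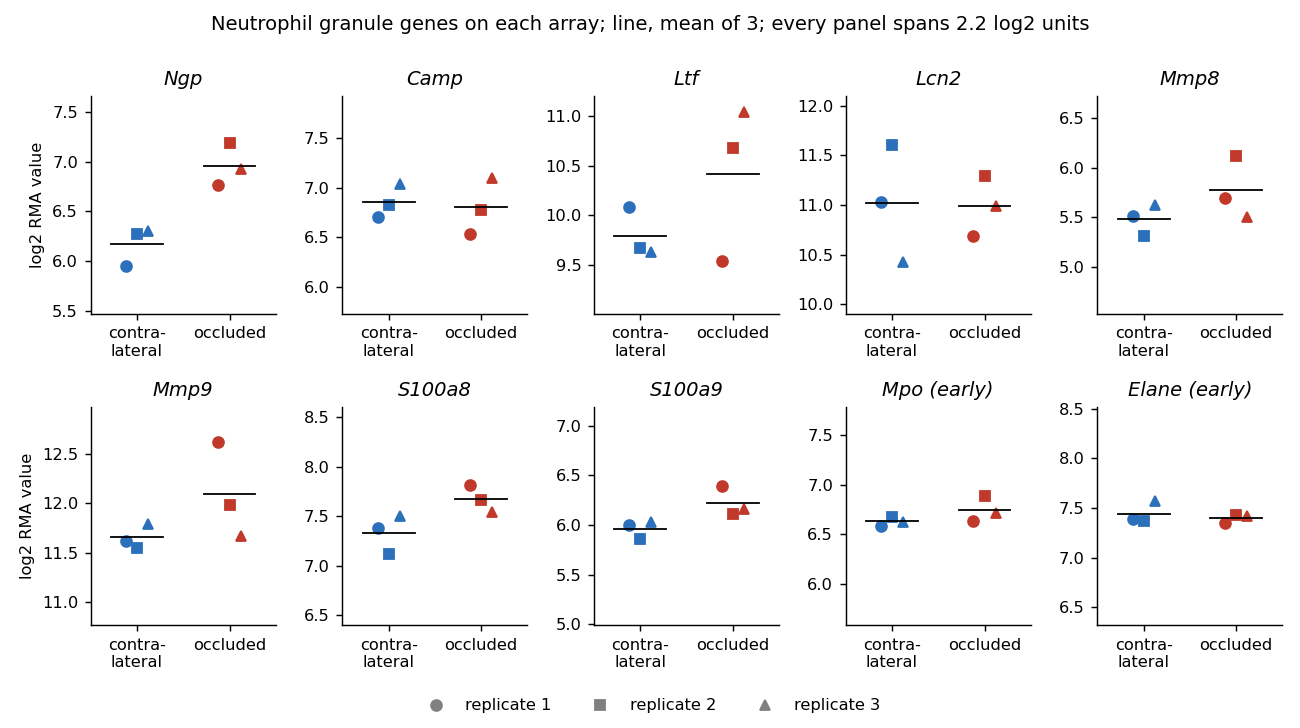
Log2 value of each granule gene on the 6 arrays, by side, with 1 symbol per replicate number and a line at the mean of 3. Ngp, S100a8 and S100a9 show no overlap between the sides, and the widest spread within a side is that of Ltf on the occluded side.

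Ngp, the neutrophilic granule protein of mouse specific granules, had the largest difference. Its log2 values were 6.77, 7.19 and 6.93 on occluded replicates 1, 2 and 3, and 5.95, 6.27 and 6.30 on the contralateral ones. The lowest occluded array was 0.47 above the highest contralateral array. The log2 difference was 0.79 (SE 0.15, 95% interval 0.43 to 1.15). Its values lie within the range of genes of other organs, so no fold is given. Its unadjusted limma p of 0.00133 was the 37th smallest of all probe sets, and the adjusted p was 0.805. With any 1 array left out the difference stayed between 0.67 and 0.89, and it was 0.89 without occluded replicate 1.

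Camp, the precursor of the only mouse cathelicidin and a gene of the same granules, had no such gap between the sides. The occluded arrays were at 6.53, 6.78 and 7.09 and the contralateral ones at 6.70, 6.83 and 7.04, so the sides overlapped fully, with the lowest and the highest value both on the occluded side. Its log2 difference was -0.06 (SE 0.17, 95% interval -0.45 to 0.34). The difference of Ngp exceeded that of Camp by 0.84, a gap for which no test was run. Without occluded replicate 1 Camp was at 0.08, and without contralateral replicate 3 at 0.04.

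Ltf, lactoferrin, spread most. Its log2 values were 9.54, 10.68 and 11.05 on the occluded side and 10.08, 9.67 and 9.63 on the contralateral side. Occluded replicate 1 held the lowest value of all 6 arrays, whereas the other occluded arrays lay above all contralateral ones. The difference was 0.63 (SE 0.38, 95% interval -0.27 to 1.52) with a limma adjusted p of 0.823, was 1.07 without occluded replicate 1 (limma adjusted p 0.577, unadjusted p 0.00166), and was 0.31 without occluded replicate 3. Lcn2, which starves bacteria of iron by binding their siderophores, stood at 10.69, 11.29 and 10.99 on the occluded and 11.03, 11.60 and 10.42 on the contralateral side. Both its highest and its lowest value were contralateral, and its difference was -0.03 (SE 0.30), moving to 0.12 without occluded replicate 1, to 0.26 without contralateral replicate 2 and to -0.33 without contralateral replicate 3.

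Mmp8, neutrophil collagenase, had occluded values of 5.70, 6.12 and 5.50 and contralateral values of 5.52, 5.31 and 5.62. The sides overlapped, and the difference of 0.29 (SE 0.17) was 0.12 without occluded replicate 2 and 0.20 without contralateral replicate 2. Mmp9, gelatinase B, had occluded values of 12.61, 11.98 and 11.67 and contralateral values of 11.62, 11.55 and 11.79. Occluded replicate 1 was the highest array and occluded replicate 3 lay inside the contralateral range. The difference of Mmp9 was 0.44 (SE 0.23, 95% interval -0.12 to 0.99), with a limma adjusted p of 0.823, and it was 0.17 without occluded replicate 1.

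The calprotectin pair had smaller differences than Ngp, and the sides did not overlap. S100a8 was at 7.82, 7.66 and 7.54 on the occluded side and at 7.38, 7.12 and 7.50 on the contralateral side, with only 0.04 between the nearest arrays of the sides. S100a9 was at 6.39, 6.11 and 6.16 against 6.00, 5.86 and 6.03, with 0.08 between the nearest arrays. On both genes occluded replicate 1 was the highest array and contralateral replicate 2 the lowest. The log2 differences were 0.34 (SE 0.13) for S100a8 and 0.25 (SE 0.11) for S100a9, with unadjusted limma p of 0.0378 and 0.0543 and an adjusted p of 0.823 for each. Without occluded replicate 1 they were 0.27 and 0.17, and S100a8 was 0.23 without contralateral replicate 2.

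The early genes varied least over the 6 arrays. Mpo was at 6.63, 6.89 and 6.71 on the occluded side and at 6.59, 6.68 and 6.63 on the contralateral side, a range of 0.30 over all arrays. Elane was at 7.34, 7.42 and 7.42 against 7.39, 7.37 and 7.57, a range of 0.22. For both, the sides overlapped. The difference of Mpo was 0.11 (SE 0.10, 95% interval -0.12 to 0.35), and was 0.04 without occluded replicate 2 and 0.17 without occluded replicate 1. The difference of Elane was -0.05 (SE 0.09, 95% interval -0.27 to 0.18), and was 0.02 without contralateral replicate 3.

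**Figure D2:**
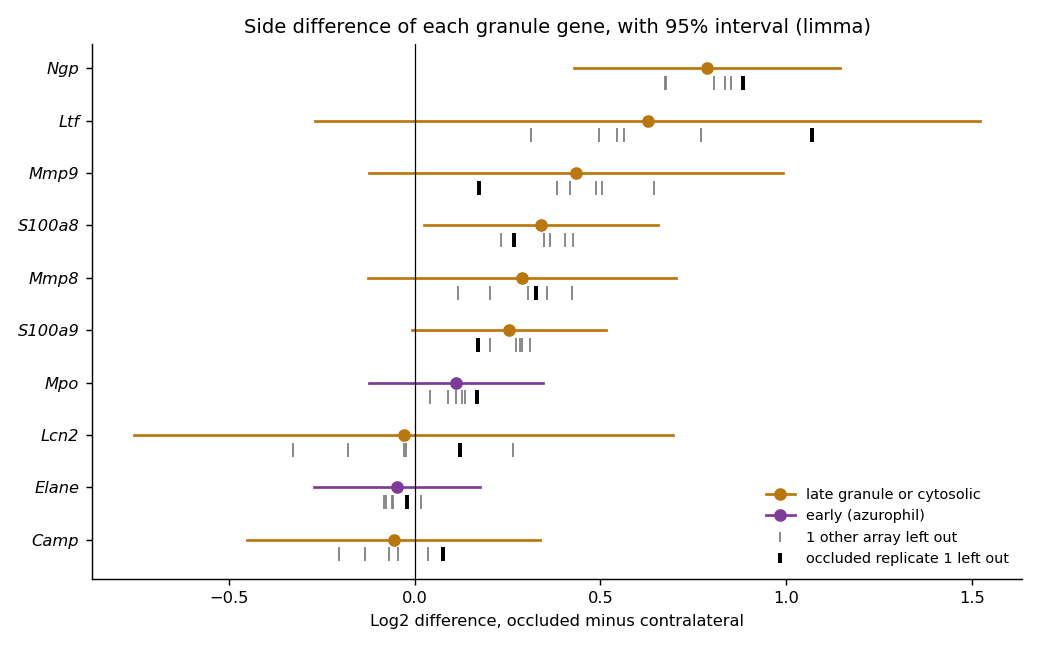
Log2 difference (occluded minus contralateral) of each granule gene with its 95% interval from limma, and below each the difference with 1 array left out. The intervals of Ngp and S100a8 lie above 0, unadjusted, and leaving out occluded replicate 1 moves Ltf from 0.63 to 1.07 and Mmp9 from 0.44 to 0.17.

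Set against each other, the late genes had a mean log2 difference of 0.33 and the early genes one of 0.03. Averaged per array, the 8 late genes were at 8.26, 8.48 and 8.37 on the occluded side and at 8.03, 8.03 and 8.04 on the contralateral side, without overlap. The 2 early genes averaged 6.99, 7.15 and 7.07 against 6.99, 7.03 and 7.10, with overlap. The late mean minus the early mean was 1.27, 1.32 and 1.30 on the occluded arrays and 1.05, 1.00 and 0.94 on the contralateral arrays. Its level has no meaning of its own, since probe sets differ in brightness, and only its change between the sides is read. That change was 0.30, from 1.00 ± 0.05 (SD, n = 3) on the contralateral to 1.30 ± 0.03 (SD, n = 3) on the occluded side. It was 0.31 without occluded replicate 1 and 0.31 without Lcn2 and Ltf. It was 0.29 without Mmp8 and Mmp9, and 0.31 without S100a8 and S100a9. All of these kept Ngp, which had the largest late difference (0.79), and leaving out Ngp alone was not run. The change was 0.23 without the lowest 25% of probe sets, which removes Ngp, Mmp8 and S100a9. The early side rests on 2 dim probe sets, and the genes were chosen with earlier results of these data known. No p-value is therefore given for this score. The wider lists described below held a smaller gap. Other late products (11 measured) had a median log2 difference of 0.12 and other early genes (5 measured) one of 0.09. The 8 late and 2 early genes had medians of 0.31 and 0.03. The wider lists were at 0.06 and 0.04 without occluded replicate 1, and at 0.08 and 0.11 without occluded replicate 2. Without contralateral replicate 3 they were at 0.26 and 0.09. Averaging also hides that the late genes did not move as a block: 3 had their highest array in occluded replicate 1 (Mmp9, S100a8 and S100a9), 2 in occluded replicate 2 (Ngp and Mmp8), 2 in occluded replicate 3 (Camp and Ltf) and Lcn2 in contralateral replicate 2.

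**Figure D3:**
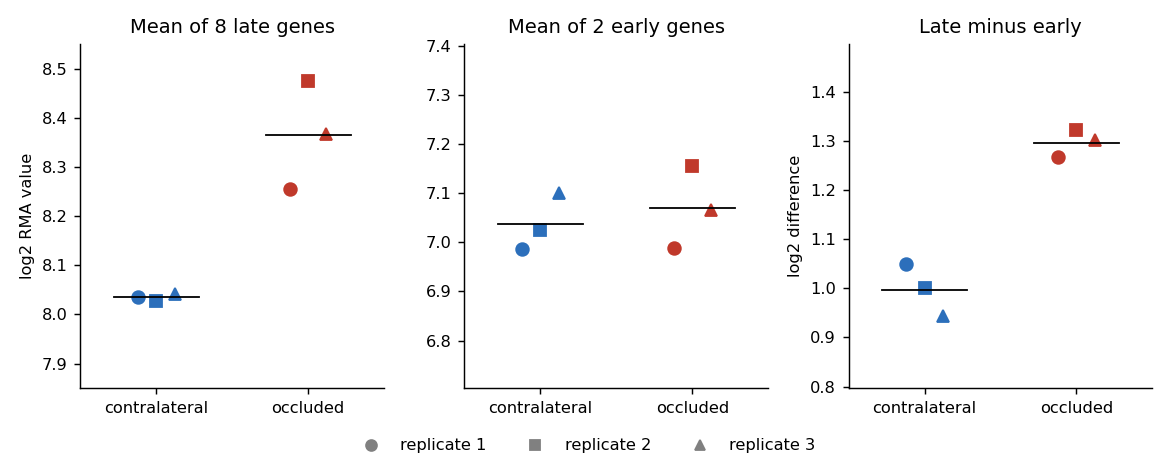
Mean log2 value of the 8 late and of the 2 early granule genes, and their difference, on each array by side, with lines at side means. Late minus early lies between 1.27 and 1.32 on the occluded arrays and between 0.94 and 1.05 on the contralateral arrays, while the early genes overlap.

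Other neutrophil genes had smaller median differences than the 8 late genes. In the list of other late granule and mature neutrophil products 11 of 20 were measured, 9 above 0, with a median of 0.12 and 0 past the adjusted test. The 2 with an unadjusted p under 0.05 were Pglyrp1, a peptidoglycan-binding protein of specific granules, at 0.36 (SE 0.11), and Chil3, a chitinase-like protein also of macrophages, at 0.38 (SE 0.14). The sides of both did not overlap. Each of these counts is 2 of 11, against 5.28% of all probe sets at an unadjusted p under 0.05 and 7.49% with all occluded arrays higher. Pglyrp1 was at 8.57, 8.92 and 8.81 on the occluded and 8.47, 8.40 and 8.36 on the contralateral side. Hp, haptoglobin, was at 0.35 (SE 0.20). This list had a median of 0.06 and 6 of 11 above 0 once occluded replicate 1 was left out, and its median was 0.20 without occluded replicate 3 and 0.26 without contralateral replicate 3. In the list of other early granule and promyelocyte genes 5 of 9 were measured, 4 above 0, with a median of 0.09, none past an unadjusted p of 0.05 and none past the adjusted test. Ctsc, cathepsin C, which activates the granule serine proteases and is made in many cells, was at 0.25 (SE 0.11), Srgn, the granule proteoglycan serglycin, at 0.10 (SE 0.09), and Ms4a3, a promyelocyte membrane protein, at -0.07 (SE 0.08). The protease genes Prtn3 and Ctsg, named after their values were seen, were at 0.09 (SE 0.11) and 0.05 (SE 0.09).

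Receptors, regulators and attractants of neutrophils were near the median of all probe sets or leaned on occluded replicate 1. Of 14 measured receptors and oxidase subunits 9 lay above 0, with a median of 0.16, or 0.03 without occluded replicate 1. The Fc receptor gene Fcgr3 was at 0.35 (SE 0.14), and the integrin subunits Itgam and Itgb2 at 0.30 (SE 0.16) and 0.35 (SE 0.21), moving to 0.12 and 0.11 without occluded replicate 1; macrophages express all 3. The receptors closest to the neutrophil lineage, Csf3r for the growth factor G-CSF and Cxcr2 for chemokines, named after their values were seen, were at -0.03 (SE 0.13) and 0.18 (SE 0.25). Of 8 granulocyte transcription factors 5 lay above 0, with a median of 0.09, or 0.0028 without occluded replicate 1. Cebpe, which drives specific granule genes, was at 0.23 (SE 0.19), with 6.32, 6.41 and 6.54 on the occluded and 6.33, 5.77 and 6.48 on the contralateral side. Spi1, which encodes PU.1, was at 0.40 (SE 0.26), or 0.11 without occluded replicate 1, and Irf8, a monocyte factor, at 0.17 (SE 0.13). Of 14 attractants and growth factors 7 were above and 7 below 0, and the median was 0.01. Il1a was at 0.25 (SE 0.11), Csf2 at 0.25 (SE 0.12) and Cxcl12, the bone marrow retention chemokine, at 0.27 (SE 0.18). None of these genes passed the adjusted limma test.

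Markers of other cells peaked on the same arrays as some of the granule genes, and their part in the differences was not tested. On occluded replicate 1, Mmp9, S100a8 and S100a9 had their highest value and Camp, Ltf and Elane their lowest. This array had the highest median, 8.12 against 7.94 to 8.03 on the others. The neuron genes Omp, Adcy3, Cnga2, Ano2, Rtp1, Stoml3 and Gng13 also peaked there, but not Gnal, Cngb1 and Slc17a6. So did the cell cycle genes Cdk1, Birc5, Aurkb, Ccna2 and Plk1, but not Mki67, Top2a and Bub1. A peak on this array is thus not particular to macrophage or bone genes. Of 12 macrophage and monocyte markers 11 lay above 0, with a median of 0.32, or 0.12 without occluded replicate 1 and 0.18 without contralateral replicate 2, and their mean level ran from 7.90 to 8.35 on the occluded and from 7.63 to 7.89 on the contralateral arrays. Tyrobp, an adaptor of immune receptors, was at 0.62 (SE 0.20), Cd14 at 0.38 (SE 0.13) and Cd68, a lysosomal protein of macrophages and osteoclasts, at 0.57 (SE 0.26). All 12 bone and osteoclast markers lay above 0, with a median of 0.40, or 0.22 without occluded replicate 1. Their mean level ran from 10.72 to 11.32 on the occluded and from 10.51 to 10.76 on the contralateral arrays. Every occluded array lay above every contralateral one in 3 of 12 bone and 3 of 12 macrophage markers, against 7.49% of all probe sets. The unadjusted limma p was under 0.05 for 4 bone and 2 macrophage markers, all higher, against 3.81%. Ctsk, the osteoclast collagenase, was at 12.68, 12.43 and 12.16 on the occluded and 11.84, 11.71 and 12.18 on the contralateral side. Its highest array, occluded replicate 1, was also the highest for Mmp9, S100a8, S100a9, Cd68 and Tyrobp. The macrophage markers Cd14 and Ccr2 did not peak there, but on occluded replicate 2 and contralateral replicate 3. Dmp1 and Mepe, both of bone matrix, were at 0.71 (SE 0.20) and 0.56 (SE 0.16).

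Gland genes were mixed on the array where Ltf was lowest, occluded replicate 1: of 11 measured, 5 had their lowest occluded value there (Bpifb5, Dmbt1, Agr2, Pigr and Azgp1) and 6 did not. The 11 measured markers of nasal glands and respiratory secretory cells averaged 8.89, 9.58 and 9.17 on occluded replicates 1, 2 and 3, and from 8.75 to 8.76 on the contralateral arrays; 9 lay above 0, with a median of 0.22. Without Bpifb5 and Dmbt1, named with the other counted genes after their values were seen, the averages on the occluded arrays were 9.06, 9.23 and 9.07. Bpifb5, a secreted BPI fold protein, was at 9.45, 12.53 and 10.07 on the occluded and 7.56, 8.33 and 8.90 on the contralateral side. Pigr, which carries IgA across epithelia, was at 0.62 (SE 0.34), and Tff2, a trefoil peptide of mucus, at 0.50 (SE 0.27). Tff2 went the other way among the occluded arrays, at 9.43, 8.92 and 8.39, and Lcn2 had its highest value on contralateral replicate 2. The part of gland tissue in the Ltf values was not tested.

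Ngp was highest on occluded replicate 2 and lowest on contralateral replicate 1, and so was the erythroid gene Alas2, which starts haem synthesis in red cell precursors. The same held for the erythroid genes Slc4a1 and Epb42, but not for Rhag, Klf1, Hemgn and Tfrc. It held as well for Mpo, Chil3, Cd14 and the gland genes Bpifb5, Pigr, Reg3g and Bpifa1, among others. This order is thus not particular to erythroid genes. The gland genes Muc2, Scgb1a1, Lpo, Dmbt1, Tff2, Agr2 and Azgp1 did not have it. The share of all probe sets with this order was not counted. Alas2 was at 9.13, 10.06 and 9.48 on the occluded and 8.50, 8.94 and 9.15 on the contralateral side, a difference of 0.69 (SE 0.27) with overlapping sides. Of 7 measured erythroid markers 6 lay above 0, with a median of 0.32, or 0.10 without occluded replicate 2, among them Slc4a1, the red cell anion exchanger, at 0.54 (SE 0.29) and Hemgn at 0.32 (SE 0.18). Their mean level ran from 7.37 to 8.0 on the occluded and from 7.21 to 7.41 on the contralateral arrays. B lineage precursors, which share the bone marrow with neutrophil precursors, had 4 of 7 above 0 and a median of 0.00075, with Vpreb3 at 0.13 (SE 0.14), Blnk at 0.06 (SE 0.11) and Rag2 at -0.07 (SE 0.15). Of 6 megakaryocyte and platelet markers 4 lay above 0, with a median of 0.10; Pf4 was at 0.35 (SE 0.14), Itgb3, which osteoclasts share, at 0.45 (SE 0.23) and Gp9 at -0.29 (SE 0.15). The part of blood or marrow in the granule gene differences was not tested.

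Apart from the mature olfactory neuron markers, the remaining lists lay near the median of all probe sets or had few genes far from it. Of 11 eosinophil and mast cell markers 6 lay above 0, with a median of 0.04; the eosinophil chemokine receptor Ccr3 was at 0.49 (SE 0.18), eosinophil peroxidase Epx, a relative of Mpo, at 0.10 (SE 0.09) and the mast cell protease Cpa3 at 0.27 (SE 0.23). Squamous and stressed epithelium, which also makes S100a8 and S100a9, had 5 of 10 above 0 and a median of 0.0011, with Sprr3 at -0.37 (SE 0.15), Sprr1a at -0.53 (SE 0.37) and Krt4 at 0.21 (SE 0.11). Cell cycle genes had 5 of 8 above 0 and a median of 0.13, or -0.01 without occluded replicate 1, with Cdk1 at 0.30 (SE 0.15), Aurkb at 0.22 (SE 0.14) and Ccna2 at 0.13 (SE 0.11). Mature olfactory neuron markers had 8 of 10 above 0 and a median of 0.16. In 4 of these 10 every occluded array lay above every contralateral one and in 1 below, against 7.49% and 3.24% of all probe sets. The unadjusted limma p was under 0.05 for 2 higher and 1 lower, against 3.81% and 1.47%. Slc17a6, a glutamate transporter, was at -0.52 (SE 0.09), and the channel genes Cnga2 and Ano2 were at 0.26 (SE 0.09) and 0.23 (SE 0.08). The 14 genes of other organs had 3 above 0 and a median of -0.06. No gene of any of these lists passed the adjusted limma test.

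**Figure D4:**
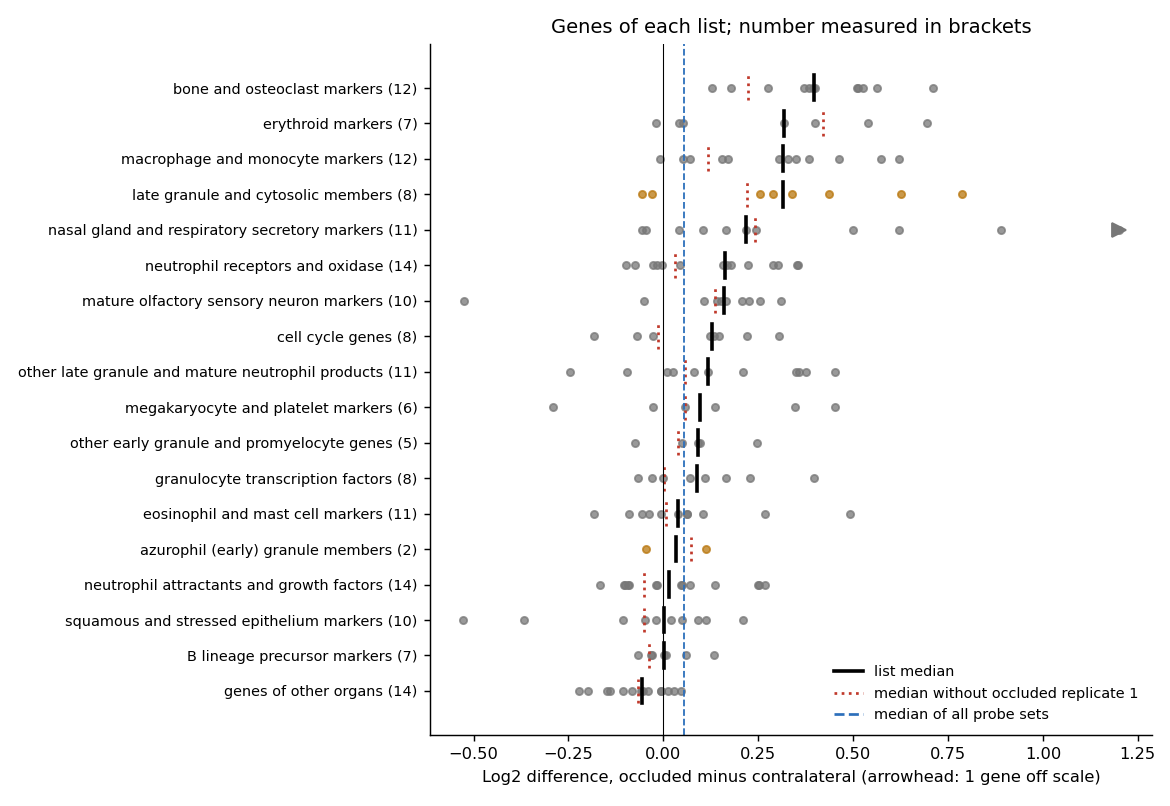
Log2 difference (occluded minus contralateral) of every measured gene of each list, with the list's median, its median without occluded replicate 1 and the median of all probe sets. The late granule median is 0.31, and those of macrophage, erythroid and bone markers are 0.32, 0.32 and 0.40. Leaving out occluded replicate 1 lowers the late granule and bone medians to 0.22 each and the macrophage median to 0.12. Without occluded replicate 2 (not drawn) the erythroid median is 0.10 and the late granule median 0.33. Bpifb5, at 2.42, lies off the scale.

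Among the 14996 probe sets with 1 symbol, other genes came close to the mean profile of the 8 late genes over the 6 arrays, measured as the root-mean-square distance between gene-centred log2 values. The nearest were Glod5 at a distance of 0.03, Slc39a8, a zinc transporter, at 0.05, and Pglyrp1, Sytl2, a vesicle transport protein, and Pcp4 at 0.05, 0.06 and 0.06. All 10 granule genes lay farther from that mean than these 5, an order largely fixed in advance because the 5 were picked as the nearest. Mpo, an early gene that is no part of the mean, was at 0.11, S100a9 at 0.16, S100a8 and Mmp8 at 0.17, and Ltf at 0.46. Probe sets of other genes lying nearer numbered 197 for Mpo, 1726 for S100a9, 2334 for S100a8, 2593 for Mmp8 and 6470 for Elane. They numbered 12477 for Camp, 12512 for Ngp, 14273 for Mmp9, 14693 for Lcn2 and 14816 for Ltf. With 6 arrays many genes fit any profile, and the distance says nothing on shared function.

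**Figure D5:**
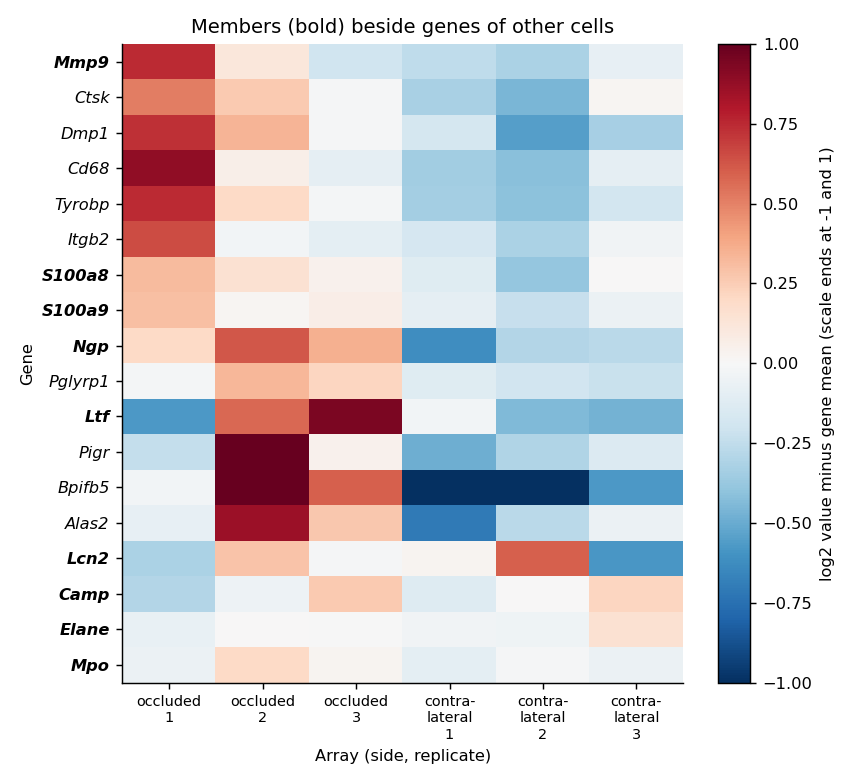
Log2 value minus the gene's mean over 6 arrays, for the granule genes (bold) and genes picked from the other lists. Each column is 1 array, and colours end at -1 and 1. Pglyrp1 and Itgb2 come from the neutrophil lists. Mmp9, S100a8 and S100a9 are highest on occluded replicate 1, with Ctsk, Dmp1, Cd68, Tyrobp and Itgb2. Genes not drawn can differ from those of the same list. The macrophage marker Cd14 is highest on occluded replicate 2, Ccr2 on contralateral replicate 3 and the gland gene Tff2 on occluded replicate 1. Ltf, Camp and Elane are lowest there. Ngp, Mpo, Pglyrp1, Pigr, Bpifb5 and Alas2 are highest on occluded replicate 2.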

How the data were processed

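Total RNA of each side went onto 3 Affymetrix Mouse Exon 1.0 ST arrays. The authors, per the labels, summarised these with RMA in Expression Console for core genes (version not given in the sources used here). The deposited values are log2 values, as their range shows. RMA evens out arrays and summarises probes, which can shrink differences. Depth does not apply to arrays.

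Of 23332 probe sets, 14996 carried 1 symbol, 1019 several and 7317 none, and 14941 single symbols matched the reference table. A gene with several probe sets was read from the one with the highest mean. The sides were compared by limma (version 3.58.1, R 4.3.3; lmFit and eBayes, two-sided, without a replicate block), with Benjamini-Hochberg adjustment at 0.05 over the whole array. Exact permutation of 3 against 3 arrays reaches p = 0.1 at best and was not used. On simulated data (10 runs of 23332 probe sets, 50 changed at each of 4 sizes) the fit recovered 12.8% of changes of 0.5 log2 units, 66.8% of 1 unit, 85.8% of 1.5 and 92.2% of 2 units, with 6.8 false calls on average. The simulated noise was normal and independent between probe sets. It held no array that stood apart and no shift of whole arrays, unlike these data, so the rates may overstate what the real arrays allow.

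The members and lists were chosen with earlier results of these data known. Named were all members, the 3 genes of each list with the smallest p and the 5 nearest profiles, with exceptions stated. Same-numbered arrays did not clearly deviate together. The correlations of their deviations from the side means were 0.0095, 0.17 and -0.04. Arrays of unlike number had correlations from -0.17 to 0.15. Alternatives covered the block, each array left out, scaling, filters, variance models and members of the late group.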

Additional observations from a re-analysis of the deposited data

How the results depend on the processing

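Under all 15 alternative fits 0 of the granule genes passed the adjusted limma test, and the adjusted p of Ngp ran from 0.462 to 1.00. Ngp, Ltf, Mmp8, Mmp9, S100a8, S100a9 and Mpo kept their direction wherever they were measured. Leaving out 1 array turned the sign of 3 genes: Camp ran from -0.20 to 0.078 (0.078 without occluded replicate 1, 0.036 without contralateral replicate 3), Lcn2 from -0.33 to 0.26 (0.12 without occluded replicate 1, 0.26 without contralateral replicate 2) and Elane from -0.082 to 0.016 (0.016 without contralateral replicate 3). The late minus early change ran from 0.27 to 0.32 with 1 array left out. It was 0.23 without the lowest 25% of probe sets, which removes Ngp, Mmp8 and S100a9. Over all probe sets the count of adjusted calls was 0 to 1 with 1 array left out, 1 (S100a5) when only probe sets with 1 symbol were tested, and 1233 at an unadjusted p under 0.05. With the replicate number as a fixed or random block the adjusted calls stayed at 0 and the late minus early change at 0.30, while granule genes at an unadjusted p under 0.05 went from 2 to 1 with the fixed block; over all alternatives they numbered 1 to 4. The mean over several probe sets was not run, since each granule gene has 1. Signal near that of genes of other organs limits 7 of the 10 genes.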
